A study of Mus musculus with 8 samples.

Results

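The 10 genes described here fall into 3 groups of the Wnt pathway. They are the secreted antagonists Dkk1, Dkk2, Dkk3, Sfrp1, Sfrp2 and Wif1, the response genes Axin2 and Nkd1, and the nuclear factors Lef1 and Tcf7. They were selected on their measured values in these libraries, with the contrast of the genotypes known, so their values in that contrast are given as a description and support nothing on their own. All 10 were found by symbol among the 55487 genes counted, and 4 of them (Dkk1, Dkk2, Lef1 and Tcf7) were among the 14228 genes with enough counts to be tested. LLC cells are a mouse lung carcinoma line that grows as tumors when implanted in syngeneic mice. The study sequenced the RNA of wild-type LLC cells (4 libraries) and of LLC cells without Ago2 (ΔAgo2, 4 libraries), the Argonaute protein that binds small RNAs and represses matching transcripts. Both groups were kept in culture with serum and received no treatment, and the labels put all 8 libraries in batch 1. The ΔAgo2 cells were made with a lentiviral CRISPR-Cas9 guide and puromycin, and the methods name a sort of single cells into clones. Whether the 4 ΔAgo2 libraries came from 1 clone is not given in the sources used here, so the effect of the genotype cannot be told apart from that of a clone or of the transduction. The labels call the libraries biological replicates without saying that they came from separate cultures. The p-values therefore set the difference between the groups against the spread among these libraries only. Values per library are given below in the order of the replicate numbers, 1 to 4.

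Wnt ligands bind Frizzled receptors together with the co-receptors Lrp5 and Lrp6, which keeps β-catenin from being degraded. β-catenin then enters the nucleus and, bound to the factors of the TCF/LEF family, turns on response genes such as Axin2 and Nkd1, which in turn dampen the pathway. Dkk1 and Dkk2 bind the Lrp co-receptors, whereas the Sfrp proteins and Wif1 bind the ligands themselves. Several of these antagonists are also known as transcriptional targets of the pathway or as genes that tumors lose or gain.

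The libraries held 40740643 to 68530912 counts in the wild-type group and 39628101 to 57595675 in the ΔAgo2 group. With 3 counts taken as the floor of a library, the lowest level that could be told from 0 was 0.0425 to 0.0931 CPM (counts scaled to the TMM-adjusted library size), which covers counting error only. The Ago2 transcript did not separate the groups, at 119 to 520 CPM in wild-type and 293 to 408 CPM in ΔAgo2 libraries, so each library goes by its label. The study also quantified Ago2 protein in wild-type and ΔAgo2 LLC cells by Western blot, which is not part of these data. Wild-type replicate 4 stood apart from the rest. Its median Spearman correlation over genes with the other wild-type libraries was 0.864, whereas the remaining wild-type libraries reached 0.948 to 0.961 and the ΔAgo2 libraries 0.985 to 0.986. Its mitochondrial share was 0.540%, where the other 7 libraries had 2.39% to 4.51%. Of the 5 epithelial markers, Epcam had 1 count in all libraries together, and Cdh1 had 1 to 9 counts a library, whereas Krt8 and Krt18 carried most of the list's summed level of 246 to 1673 TPM (a level per gene length) in wild-type and 730 to 1133 TPM in ΔAgo2 libraries. The 3 mesenchymal markers Vim, Fn1 and Cdh2 summed to 2903 to 4016 TPM and 3893 to 4848 TPM, in the same order. The 6 fibroblast markers summed to 4.69 to 25.5 and 14.8 to 30.9 TPM, the 5 leukocyte markers to 18.2 to 101 and 15.2 to 46.1 TPM, and the 4 endothelial markers to 0.04 to 0.35 and 0.17 to 0.77 TPM. Cd3e was at 0 in all 8 libraries, and Ptprc and Itgam had at most 2 counts in any. Cd68 carried most of the leukocyte sum, at 16.5 to 94.6 TPM in wild-type and 12.8 to 44.4 TPM in ΔAgo2 libraries. Lyz2 was at 1.19 to 6.30 TPM and 1.76 to 2.62 TPM, in the same order.

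Dkk1 and Dkk2 carried nearly all of the summed TPM of the 6 antagonists listed here, so the sequence before the start of each is shown first. Dkk1 (ENSMUSG00000024868.8) lies on the minus strand of chromosome 19 of GRCm38 from 30545863 to 30549665, and Dkk2 (ENSMUSG00000028031.6) on the plus strand of chromosome 3 from 132085292 to 132180304. The 250 bases before the start given by RefSeq (GRCm38.p6) were searched on both strands for CTTTGAA and CTTTGAT, forms of the site that TCF/LEF factors bind, which do not overlap each other. Of the 32851 windows in the RefSeq table, 2457 (7.5%) held either one. A window was present for 8 of the 10 genes, 12 windows in all, and 1 of these held a match, that of Dkk1. For Dkk1 the 30 bases around that match are given in the gene's direction, with the match in capitals, followed by the 30 bases around a TATAAA, the core of a TATA box. For Dkk2 all 250 bases are given with their TATAAA in capitals, since the window holds no TCF/LEF match.
Dkk1, chr19:30549595-30549624, minus strand: tcctcccaaagCTTTGAAatcccatcccgg
Dkk1, chr19:30549533-30549562, minus strand: tgggagcctgagTATAAAggcagccagagg
Dkk2, chr3:132085042-132085291, plus strand: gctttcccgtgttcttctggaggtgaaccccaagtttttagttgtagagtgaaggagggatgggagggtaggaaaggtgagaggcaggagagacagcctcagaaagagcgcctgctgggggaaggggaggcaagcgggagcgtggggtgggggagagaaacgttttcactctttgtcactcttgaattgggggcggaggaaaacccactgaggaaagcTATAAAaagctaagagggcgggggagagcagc
The CTTTGAA of Dkk1 began 117 bases before the RefSeq start. That start lies 169 bases inside the gene as GENCODE draws it, so both Dkk1 stretches fall within the GENCODE gene. The TATAAA, which was looked for after the sequences had been seen, began 54 bases before the start of Dkk1 and 32 bases before that of Dkk2. On the gene's strand, 863 windows (2.63%) held TATAAA within the last 50 bases, Dkk2 among them. A match of letters is a description and does not show that a factor binds there.

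Dkk1, the founding member of the Dickkopf family, was detected in every wild-type library and was at or near 0 in every ΔAgo2 library. It had 131, 262, 95 and 813 counts in wild-type cells and 3, 0, 0 and 0 counts in ΔAgo2 cells. At library scale, the wild-type libraries were at 2.66, 3.71, 1.41 and 25.2 CPM, and the highest ΔAgo2 library was at 0.0488 CPM. The groups did not overlap, and wild-type replicate 4, the library that stood apart, held the largest share of the Dkk1 counts. Summed over each group, 1301 wild-type counts stood against 3 ΔAgo2 counts, a ratio per library size of 390 (exact 95% interval 133 to 1894, counting error only). Without wild-type replicate 4 the ratio was 171.5 (58.3 to 834), from 488 counts against the same 3. Both intervals pool the libraries and leave out the spread between them, such as 95 to 813 counts in wild-type cells. Dkk1 was selected on these values, so the ratios are a description and support nothing on their own. In bulk RNA, fewer cells that make a transcript and less of it per cell cannot be told apart, so a level of 0 says only that no more than the floor was present in the culture as a whole.

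Of the 10 genes, edgeR's quasi-likelihood test, fitted across all genes, called 1, Dkk1, at a Benjamini-Hochberg adjusted p under 0.05. Over all 14228 genes tested, 42 were called (0.295%), of which 11 were higher (0.0773%) and 31 lower (0.218%) in ΔAgo2 cells. Since the genes were selected with this contrast known, nothing is read from that count. Dkk1 passed the filter on low counts through its wild-type libraries alone, and a gene that enters in that way has to differ between the groups. Its call was lost without wild-type replicate 1, without any one of the 4 ΔAgo2 libraries, with a filter of 1 CPM in 4 libraries, and on the log2(TPM + 1) scale. Calls over all genes fell in the same fits. They were 12 without wild-type replicate 1, and 1, 7, 7 and 7 without ΔAgo2 replicates 1 to 4. With the filter of 1 CPM they were 6, and on the log2(TPM + 1) scale 15. The call of Dkk1 was kept with DESeq2 and without wild-type replicates 2, 3 and 4 in turn.

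Dkk2, a relative of Dkk1 that binds the same co-receptors, was the most abundant of the 10 genes in both groups. It had 30288, 18110, 885 and 4072 counts in wild-type cells and 36635, 23427, 28362 and 25252 counts in ΔAgo2 cells. At library scale these were 616, 257, 13.1 and 126 CPM in the wild-type and 596, 557, 695 and 478 CPM in the ΔAgo2 libraries. The ΔAgo2 libraries sat close together, whereas wild-type replicate 1 reached their level and wild-type replicate 3 was far below all others, so the groups overlapped. The means were 253 ± 262 CPM and 581 ± 90.4 CPM (SD, n = 4 each). The log2 fold change of ΔAgo2 over wild-type was 1.20 (SE 0.79), which was not called. It was 2.14 without wild-type replicate 1, 0.81 without wild-type replicate 3 and 2.35 on the log2(TPM + 1) scale.

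**Figure D1:**
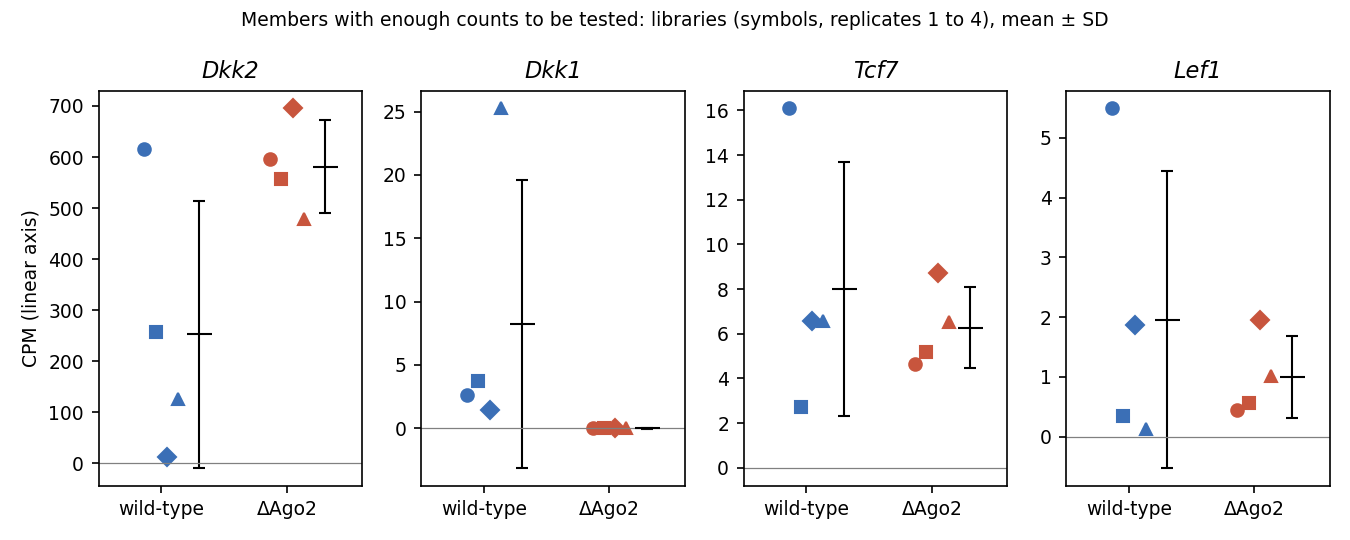
CPM on linear axes of the 4 members with enough counts to be tested, in each of 4 wild-type (blue) and 4 ΔAgo2 (red) libraries, with circle, square, diamond and triangle for replicates 1 to 4 and a black bar for the mean ± SD. Dkk1 is above 1 CPM in each wild-type library and at most 0.0488 CPM in the ΔAgo2 libraries. The wild-type values of Tcf7 and Lef1 spread around those of the ΔAgo2 libraries. For Dkk2, wild-type values run from 13.1 to 616 CPM and ΔAgo2 values from 478 to 695 CPM, with only wild-type replicate 1 inside the ΔAgo2 range.

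The wild-type libraries differed in their antagonist makeup. On the TPM scale, Dkk2 took 99.3%, 97.8%, 85.7% and 76.6% of the summed level of the 6 antagonists in the wild-type libraries, and Dkk1 took 0.656%, 2.16%, 14.0% and 23.4%. In the ΔAgo2 libraries the share of Dkk2 was 99.97% to 100.0%. The summed antagonist level ran from 14.2 to 517 TPM in wild-type and from 455 to 635 TPM in ΔAgo2 libraries.

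The other 4 antagonists were at or near the floor in both groups, so no fold change is given for them. Dkk3, a divergent member of the Dickkopf family, had 4, 4, 2 and 1 counts in wild-type and 0, 0, 1 and 2 counts in ΔAgo2 cells. Sfrp1, a decoy that resembles the ligand-binding part of Frizzled, had 1, 1, 0 and 0 counts in wild-type and 7, 0, 1 and 1 counts in ΔAgo2 libraries. Its relative Sfrp2 and the ligand-binding factor Wif1 had 0 counts in all 8 libraries, which allows up to 3 counts in each. A difference in these 4 genes was not detectable at this depth.

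Axin2, a scaffold of the complex that degrades β-catenin and a widely used readout of Wnt activity, was low throughout. It had 7, 18, 7 and 33 counts in wild-type and 11, 18, 4 and 4 counts in ΔAgo2 cells, too few to pass the filter. Its TPM level was 0.183 ± 0.160 in wild-type and 0.128 ± 0.106 in ΔAgo2 cells (SD, n = 4 each), and the libraries of the groups overlapped. Nkd1, which binds Dishevelled and restrains the pathway, had 1, 0, 0 and 2 counts in wild-type and 0 counts in all 4 ΔAgo2 libraries, under the floor in each.

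Lef1 and Tcf7, the DNA-binding partners of β-catenin, were both expressed and varied more among wild-type than among ΔAgo2 libraries. So did tested genes in general, with a median SD of log2 CPM of 0.78 in wild-type and 0.23 in ΔAgo2 libraries. Lef1 had 270, 25, 126 and 4 counts in wild-type and 27, 24, 80 and 54 counts in ΔAgo2 cells, or 5.49, 0.354, 1.87 and 0.124 CPM against 0.440, 0.570, 1.96 and 1.02 CPM. The ΔAgo2 libraries all lay inside the range of the wild-type libraries. The log2 fold change was -0.98 (SE 0.96) and was not called, and it turned to 0.32 without wild-type replicate 1. Tcf7 had 791, 193, 443 and 212 counts in wild-type and 285, 219, 356 and 345 counts in ΔAgo2 libraries, which is 16.1, 2.73, 6.58 and 6.58 CPM against 4.64, 5.20, 8.73 and 6.53 CPM. Here too wild-type replicate 1 was the highest library and the groups overlapped. The log2 fold change of Tcf7 was -0.35 (SE 0.50), was not called, and turned to 0.25 without wild-type replicate 1.

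**Figure D2:**
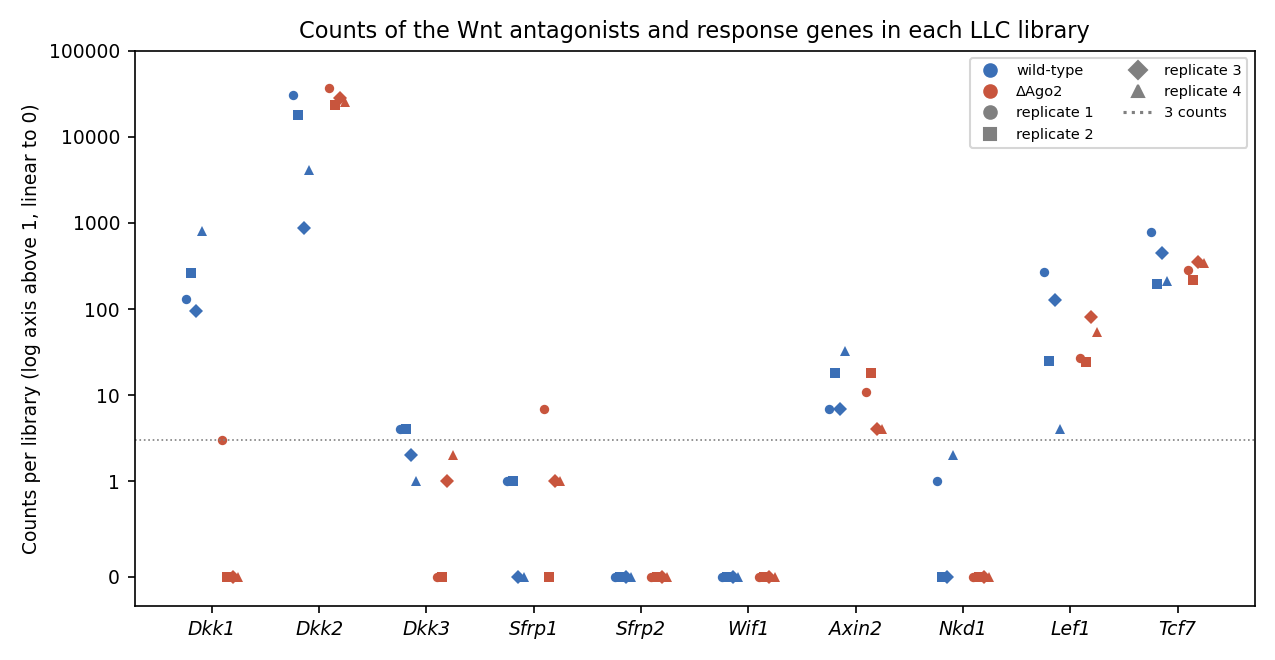
Counts of the 10 genes in each library, on an axis that is logarithmic above 1 and linear down to 0, with wild-type in blue, ΔAgo2 in red, a symbol for each replicate and a dotted line at the floor of 3 counts. Dkk1 is the gene whose groups stand apart above the floor, from 95 to 813 counts in wild-type and 0 to 3 in ΔAgo2 libraries, and Sfrp2 and Wif1 are at 0 throughout.

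Of the 4 tested genes, the groups did not overlap for 1 (Dkk1, with ΔAgo2 below). Over all genes tested, 6.07% had groups that did not overlap on the CPM scale, with ΔAgo2 above for 3.09% and below for 2.98%.

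Dkk1, Dkk2 and Lef1 spread widely among the wild-type libraries. The SD of log2 CPM over the 4 wild-type libraries was 2.37 for Dkk2, and 0.794% of the tested genes had a larger one. It was 2.28 for Lef1 (1.01% of genes larger), 1.78 for Dkk1 (4.73%) and 1.04 for Tcf7 (29.6%), against a median of 0.78 over all tested genes. The highest wild-type library exceeded the lowest 46.8-fold for Dkk2, 44.2-fold for Lef1, 17.9-fold for Dkk1 and 5.88-fold for Tcf7. In ΔAgo2 cells the SD of Dkk2 was 0.22, near the median of 0.23 over all tested genes, and its highest library exceeded the lowest 1.46-fold. Lef1 and Tcf7 had ΔAgo2 SDs of 0.92 and 0.40, with 3.00% and 23.4% of genes larger. The libraries at the extremes differed between the genes, since wild-type replicate 3 was lowest for Dkk1 and Dkk2, replicate 4 highest for Dkk1 and lowest for Lef1, and replicate 1 highest for Dkk2, Lef1 and Tcf7.

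Compared per gene length, the wild-type order of mean TPM was Dkk2 at 218 ± 226, Tcf7 at 9.29 ± 6.69, Dkk1 at 8.61 ± 9.78, Lef1 at 0.713 ± 0.867 and Axin2 at 0.183 ± 0.160 (SD, n = 4), followed by Dkk3, Nkd1 and Sfrp1 under 0.05 TPM. Neighbours in this order overlapped in their libraries, with the exception of Dkk1 and Lef1, whose nearest libraries were at 1.99 and 1.93 TPM. In ΔAgo2 cells Dkk2 was at 561 ± 79.5 TPM, Tcf7 at 8.47 ± 2.05 TPM and Lef1 at 0.398 ± 0.253 TPM (SD, n = 4), each apart from the next, except that Lef1 overlapped Axin2 below it. Dkk1 took the sixth place there at 0.02 ± 0.04 TPM, of which 1 library held all.

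The rest of the pathway was counted from 7 lists of 93 genes, 60 of which were tested. With edgeR's quasi-likelihood test, 0 of the 60 were called in either direction, where 42 of all 14228 genes tested were called (0.295%). At an unadjusted p under 0.05 by that test, 3 of the 60 were higher and 11 lower in ΔAgo2 cells. Of all 14228 genes tested, 387 were higher (2.72%) and 658 lower (4.62%) at that unadjusted p. DESeq2 gave an adjusted p to 68 of the 93 genes and called 7, of which 5 were among the 60 (Wnt5a higher; Frzb, Fzd4, Ptk7 and Tle1 lower) and Nkd2 and Wnt6, both lower, were not. Over all genes with an adjusted p, it called 399 of 17926 (2.23%). Voom with sample weights called 5 of the 60 (Ccnd1 higher; Frzb, Fzd4, Fzd5 and Tle1 lower) and 257 of all 14228 genes (1.81%). The median log2 fold change was -0.20 over the 60 genes and -0.11 over all genes tested. The groups did not overlap for 9 of the 60, with ΔAgo2 above for 2 and below for 7. Of all genes tested, 3.09% had ΔAgo2 above and 2.98% had it below without overlap.

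Among the ligands, 8 of 23 genes were tested and 5 (Wnt1, Wnt3a, Wnt4, Wnt7a and Wnt9b) had no count in any library. By the mean TPM of all 8 libraries, the most abundant ligand transcripts were Wnt7b, at 35.8 ± 27.0 TPM in wild-type and 87.6 ± 35.2 TPM in ΔAgo2 cells, and Wnt5a, a ligand known mainly for signalling without β-catenin, at 2.06 ± 1.27 and 7.62 ± 0.675 TPM (SD, n = 4). Wnt5a was at 8.58, 1.71, 6.60 and 3.85 CPM in wild-type cells and at 17.1, 14.3, 17.9 and 17.4 CPM in ΔAgo2 cells, and the groups did not overlap. Its log2 fold change was 1.69 (SE 0.45, Benjamini-Hochberg adjusted p = 0.284, edgeR). Wnt3 had 5 to 10 counts in wild-type and 9 to 52 in ΔAgo2 libraries, and on the CPM scale these did not overlap. Its log2 fold change was 1.89 (SE 0.62, adjusted p = 0.452, edgeR), and 0.46 on the log2(TPM + 1) scale. Wnt6, with too few counts for the filter, had 29, 4, 15 and 5 counts in wild-type and 1, 1, 2 and 0 in ΔAgo2 libraries. Wnt7b was at 3.22 CPM in wild-type replicate 3, the library with the least Dkk2, and at 40.1 to 150 CPM in wild-type replicates 1, 2 and 4, a match that was noticed after the values had been seen. Of the genes that release the ligands, Wls was at 64.8 ± 31.6 and 85.2 ± 9.19 TPM and Porcn at 1.63 ± 0.619 and 1.16 ± 0.169 TPM in wild-type and ΔAgo2 cells.

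Of 18 receptors and co-receptors, 15 were tested, with a median log2 fold change of -0.20. The groups did not overlap for 3 of them, in each case with ΔAgo2 below, as for 2.98% of all genes tested. Fzd4, a Frizzled receptor, was at 6.47, 2.75, 11.2 and 2.95 CPM in wild-type and 1.82, 1.76, 1.47 and 1.04 CPM in ΔAgo2 cells, a log2 fold change of -1.94 (SE 0.52, adjusted p = 0.277, edgeR), and of -0.92 on the log2(TPM + 1) scale. Ptk7, a pseudokinase co-receptor, ran from 75.4 to 374 CPM in wild-type and from 31.2 to 63.4 CPM in ΔAgo2 libraries (log2 fold change -1.78, SE 0.50, adjusted p = 0.313, edgeR). Without wild-type replicate 4 the log2 fold change of Ptk7 was -1.08, and with voom sample weights it was -0.87. Ror2, a receptor tyrosine kinase that binds Wnt5a, ran from 7.46 to 22.3 CPM and from 3.97 to 5.67 CPM (log2 fold change -1.37, SE 0.41, adjusted p = 0.377, edgeR). Wild-type replicate 4 was the highest library for both Ptk7 and Ror2. Ryk and Ptk7 had the highest mean TPM over the 8 libraries, Ryk at 75.1 ± 23.7 in wild-type and 87.2 ± 18.5 in ΔAgo2 cells and Ptk7 at 90.4 ± 47.3 and 34.2 ± 11.1 (SD, n = 4). In ΔAgo2 cells alone, Lrp5 was above Ptk7, at 64.6 TPM.

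Outside the 10 genes, 3 of 10 further antagonists were tested and Sfrp5, Sostdc1 and Trabd2b had no count. Frzb, which like the Sfrp proteins binds Wnt ligands, was at 11.3, 13.5, 9.75 and 12.6 CPM in wild-type and 2.15, 2.26, 1.79 and 7.30 CPM in ΔAgo2 cells. These did not overlap, and the log2 fold change was -1.80 (SE 0.48, adjusted p = 0.283, edgeR). Without ΔAgo2 replicate 4 it was -2.51 (adjusted p = 0.0713, edgeR). Kremen1, a receptor for Dkk1 and Dkk2, was the most abundant of the list at 39.7 ± 6.71 TPM in wild-type and 27.2 ± 3.82 TPM in ΔAgo2 cells, and Frzb followed at 11.5 ± 3.36 and 3.72 ± 2.85 TPM (SD, n = 4).

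All 13 cytoplasmic genes were tested, and none passed an unadjusted p under 0.05. Ctnnb1, which encodes β-catenin, was at 328 ± 137 TPM in wild-type and 441 ± 35.6 TPM in ΔAgo2 cells, and the β-catenin kinase gene Gsk3a at 128 ± 49.1 and 113 ± 15.0 TPM (SD, n = 4). Wild-type replicate 4 was the lowest wild-type library for Ctnnb1, at 139 TPM, and the highest for Gsk3a, at 196 TPM. Btrc, which marks phosphorylated β-catenin for degradation, had groups that did not overlap but a log2 fold change of only -0.22 (SE 0.23, adjusted p = 0.820, edgeR). Among the nuclear partners, 9 of 10 were tested and 8 of these had log2 fold changes under 0. The same held for 8364 of all 14228 genes tested. Tle1, a co-repressor that binds TCF/LEF factors, was at 88.5, 80.4, 140 and 127 CPM in wild-type and 49.7, 50.0, 55.9 and 48.2 CPM in ΔAgo2 cells, with no overlap. Its log2 fold change was -1.10 (SE 0.26), and its adjusted p of 0.196 was the smallest of the 60 genes (edgeR). Pygo2, at 103 ± 56.5 and 87.3 ± 19.0 TPM, and Tcf7l1, at 46.2 ± 24.0 and 39.1 ± 8.62 TPM, in wild-type and ΔAgo2 cells (SD, n = 4), had the highest mean TPM of the nuclear partners over the 8 libraries. In wild-type cells alone, Bcl9l was above Tcf7l1, at 47.9 TPM.

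Of the 17 further response genes, 10 were tested and 0 called by edgeR, where 0.295% of all genes tested were called. At an unadjusted p under 0.05, 1 was higher and 1 lower, where all genes tested gave 2.72% higher and 4.62% lower. Among the 10 tested, 8 had a log2 fold change above 0 and 2 below, with a median of 0.44. Of all 14228 genes tested, 5864 were above 0 and 8364 below. Myc and Ccnd1, which many other signals also control, had the highest mean TPM over the 8 libraries, Myc at 706 ± 516 and 677 ± 342 TPM and Ccnd1 at 418 ± 68.9 and 923 ± 153 TPM in wild-type and ΔAgo2 cells (SD, n = 4). Ephb3, a receptor tyrosine kinase of the intestinal crypt, had groups that did not overlap, at 12.1 to 27.2 CPM in wild-type and 7.93 to 9.75 CPM in ΔAgo2 libraries (log2 fold change -0.90, SE 0.32, adjusted p = 0.521, edgeR). Nkd2, the paralog of Nkd1, had 32, 9, 22 and 7 counts in wild-type and 1, 1, 1 and 0 counts in ΔAgo2 libraries, too few for the filter.

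**Figure D3:**
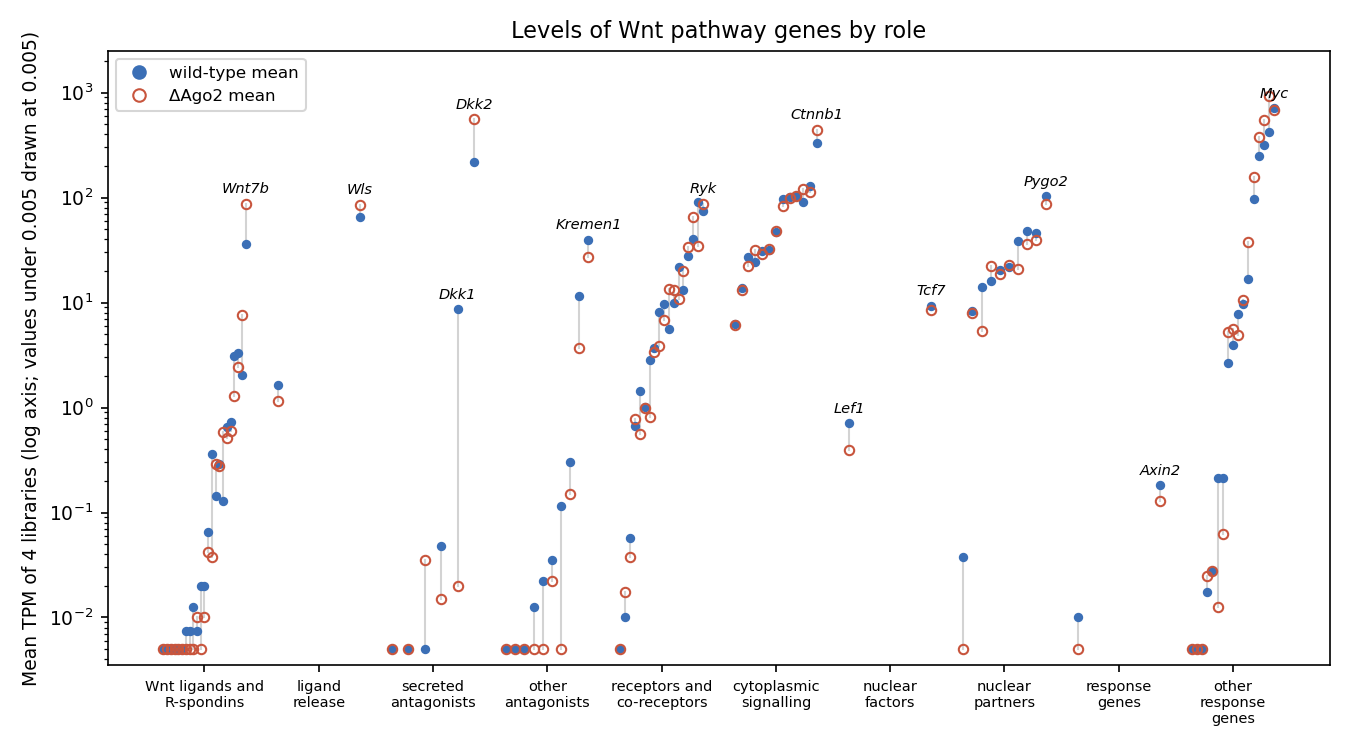
Mean TPM of 4 libraries on a log axis for the 10 genes and the 93 other pathway genes, by role, with filled blue circles for wild-type and open red circles for ΔAgo2 cells, joined by a line for each gene. Dkk2 stands above every other antagonist in both groups, at 218 and 561 TPM, and Dkk1 spans from 8.61 to 0.02 TPM.

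**Figure D4:**
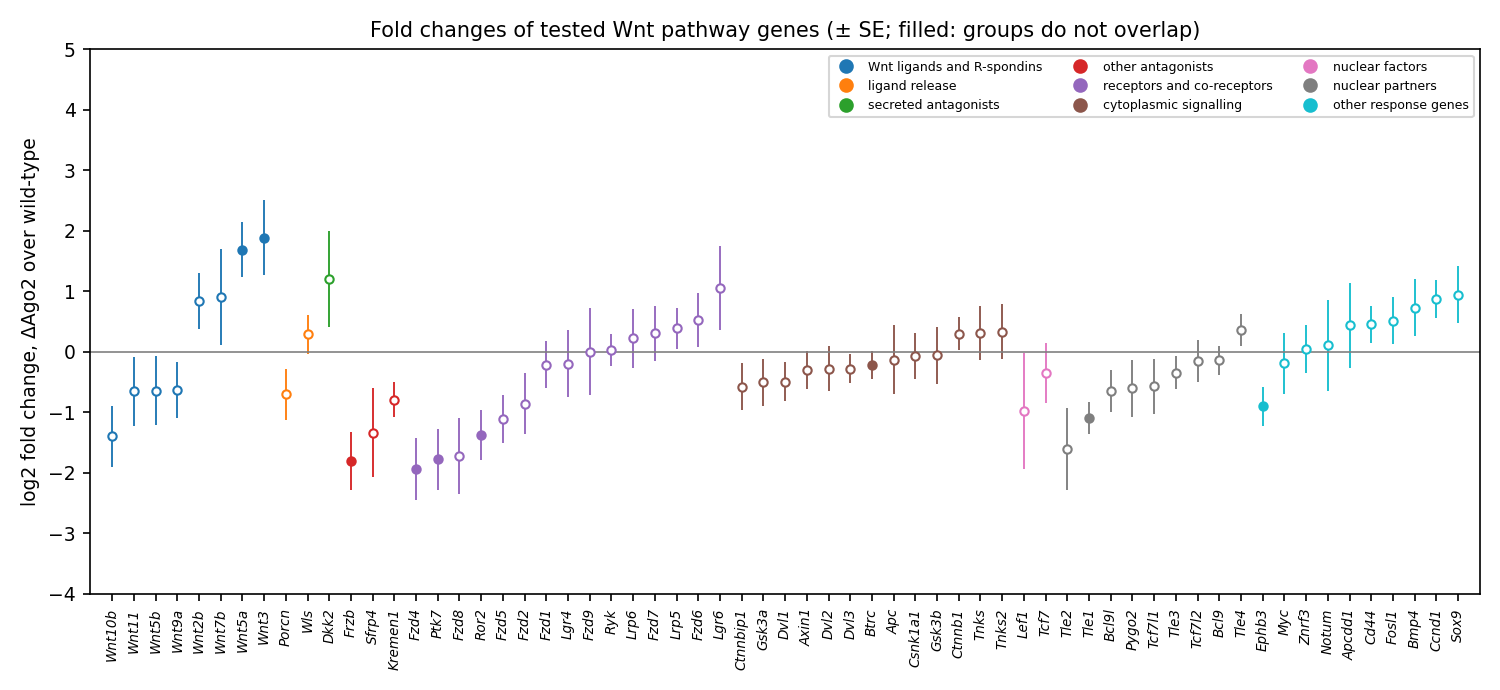
Log2 fold change (ΔAgo2 over wild-type) with its SE for the tested pathway genes, colored by role and ordered within each role, with filled points for genes whose groups do not overlap. Dkk1, whose ΔAgo2 libraries are at the floor, is left out; the tested response genes run from -0.90 for Ephb3 upwards, and Tle1, at -1.10, has the smallest adjusted p.

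The genes around Dkk1 and Dkk2 were looked at in the same fit. Within 1 Mb of Dkk1 the annotation holds 23 other genes, 8 of which were tested and 0 called by edgeR. Prkg1, the gene next to Dkk1 on the far side of its start, had 66, 61, 158 and 2 counts in wild-type and 1, 3, 1 and 1 counts in ΔAgo2 cells, and did not pass the filter. Mbl2 in the same window had 0, 8, 5 and 10 counts in wild-type and 0 in each ΔAgo2 library. Il33 had 1952, 39, 25 and 28 counts in wild-type and 56, 29, 52 and 11 counts in ΔAgo2 libraries, so wild-type replicate 1 held most of it. These 3 neighbours were singled out after their values had been seen. Lef1 lies 860.9 kb from Dkk2 on chromosome 3, from 131110471 to 131224356. Of the 34 genes within 1 Mb of Dkk2, 11 were tested, 0 were called and 1, Hadh, had groups that did not overlap. Over all genes tested, the share without overlap was 6.07% and the share called by edgeR was 0.295%.

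The tested genes most like Dkk1 over the 8 libraries, by Pearson's r of log2 CPM, were Sned1 (0.991), Zan (0.977) and Bmyc (0.976). Without wild-type replicate 4 these values were 0.994, 0.963 and 0.962. Bmyc was at 0.813, 0.482, 0.936 and 6.71 CPM in wild-type cells and at 0 in all ΔAgo2 libraries, and Sned1 at 5.38 to 14.5 CPM and 0.570 to 0.830 CPM. The 8 points share the split by genotype and the high values of wild-type replicate 4, so the likeness is a description of these libraries.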

How the data were processed

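The authors aligned reads first to a set of ribosomal RNAs, then to mm10 (STAR, per the processing notes), and obtained counts per gene with featureCounts; the annotation release and strand setting are not given in the sources used here. They deposited raw counts and, separately, TPM values, whose computation is likewise not given. A symbol was found for 55394 of 55487 IDs, 93 having none. The 10 genes and the pathway lists were chosen with earlier results of these data known. Genes named by rule beyond the 10 were those called and the 2 with the highest mean TPM in each list. The rule also took genes of a list whose groups did not overlap (at most 10), and the 3 most like a called gene. Other genes were named outside this rule, among them the cell type markers, genes without a count, Lrp5, Bcl9l and the neighbours of Dkk1 and Dkk2.

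Counts were filtered with filterByExpr (minimum count 10), scaled by TMM and compared between genotypes with edgeR 4.0.16 (R 4.3.3) by the two-sided quasi-likelihood test, with Benjamini-Hochberg adjustment over the 14228 genes and a threshold of 0.05. Log2 CPM used a prior count of 2. Alternatives were DESeq2 1.42.0, limma 3.58.1 (voom with sample weights, and log2(TPM + 1) or log2(TPM + 0.1)), other scalings and filters, a threshold of 0.1, a replicate block, and each library left out. The edgeR, DESeq2 and voom fits were tested on simulated data. The simulation gave each gene the same spread in both genotypes, so it does not cover the wider spread among the wild-type libraries. Libraries with the same replicate number did not deviate together in every pair (correlations -0.14 to 0.38), so the main fit has no block.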

Additional observations from a re-analysis of the deposited data

Results flagged for a closer look

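In 32 groups of 4 libraries (the values of the named genes and 3 measures of the libraries, in each genotype), the gap between an extreme library and its neighbour was divided by the group's range and set against Dixon's critical value. It was passed in 3 groups, where chance alone passes about 1 in 20. For Dkk1 in ΔAgo2 cells the ratio was 1, since replicate 1 had 3 counts and the others 0, a gap within the floor. For Frzb in ΔAgo2 cells it was 0.836, with replicate 4 at 7.30 CPM against 1.79 to 2.26 CPM. For the median Spearman correlation of the wild-type libraries it was 0.866, with replicate 4 lowest at 0.864. The part of these libraries in the results was not tested beyond leaving each out.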

How the results depend on the processing

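Dkk1 was the 1 gene called among the 10 under 12 alternatives. The count went to 0 with 1 CPM in 4 libraries and on log2(TPM + 1), and leaving out single libraries gave 0 to 1. These calls come from the same libraries that Dkk1 was selected on, so they support nothing on their own. The log2 fold change of Tcf7 was -0.35 and changed sign on log2(TPM + 1) (0.060) and log2(TPM + 0.1) (0.087); with single libraries left out it ran from -0.64 to 0.25, the latter without wild-type replicate 1. That of Lef1 was -0.98 and changed sign with the replicate block (0.067); with single libraries left out it ran from -1.53 to 0.32, the latter again without wild-type replicate 1. Among the pathway genes, DESeq2 called 7, voom with sample weights 5 and the fit with no filter on low counts 1 (Nkd2), and leaving out single libraries gave 0 to 2, the latter without wild-type replicate 4 (Ccnd1 and Fzd5).

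Over all genes, 42 were called, against 399 with DESeq2, 257 with voom, 143 with no filter, 6 with 1 CPM in 4 libraries, 15 on log2(TPM + 1), 79 at an adjusted p under 0.1 and 1 to 113 with a library left out, the lowest without ΔAgo2 replicate 1 and the highest without wild-type replicate 4. With the replicate block 18 were called, 17 of them shared, Dkk1 included; same-numbered libraries are not known to share more than a number. The share of calls that were higher in ΔAgo2 cells was 26.2%, and 40.5% with voom, 53.3% on log2(TPM + 1) and 44.7% on log2(TPM + 0.1). The median log2 fold change of all genes went from -0.11 to 0.15 and 0.22 on those TPM scales. The cause of these shifts was not tested. Depth limits Dkk3, Sfrp1, Sfrp2, Wif1 and Nkd1, which lie near the floor.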
